A study of Canis lupus familiaris with 18 samples.

Results

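Subcutaneous fat of 4 control dogs and 5 dogs fed ad libitum was compared in intact female beagles that were 4 years old. The members of the comparison are the arrays whose titles mark them as subcutaneous fat, 9 of the 18 arrays of the series. The other 9 arrays are gonadal fat of the same dogs. Control dogs 1, 3, 4 and 9 were given the amount of food that held their starting body weight and are described as lean. Ad libitum dogs 2, 5, 6, 7 and 8 ate without restriction for 24 weeks and are described as obese. Dogs had been allocated at random, both groups ate the same commercial diet, and fat was collected after a night without food. RNA of whole tissue was hybridised to a canine expression array, so each value is a mixture of all cells in the piece of fat that was taken, and the number of arrays limits the precision. Values are given on the log2 scale, in which a difference of 1 is a doubling, and a difference is always ad libitum minus control with its standard error.

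White fat stores triglyceride in adipocytes, which sit among stromal progenitors, fibroblasts, endothelial cells, smooth muscle and macrophages. During sustained overfeeding adipocytes enlarge by taking up and making fatty acids, and they use mitochondria to supply acetyl groups for that synthesis. Fat also answers hormones. Natriuretic peptides act on fat cells through receptors that make cyclic GMP, growth hormone opposes fat storage, and the matrix around adipocytes is remodelled as they grow.

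The arrays were checked against the tissue in their labels. The adipocyte genes ADIPOQ and FABP4 were high in all 9, though ADIPOQ was lowest in ad libitum dog 5 (13.83) and control dog 3 (13.84). PLIN1, another adipocyte gene, varied more, from 5.54 in ad libitum dog 5 to 10.71 in ad libitum dog 2. PI3, an antimicrobial protease inhibitor, stood at 11.29 to 14.22 in the subcutaneous arrays and at 5.84 to 8.30 in the gonadal arrays. Of 32 skeletal muscle markers on the array, 25 stood at or above the floor of log2 4 in control dog 3 and 28 in control dog 4, against 7 or 8 in control dogs 1 and 9. The mean level of the list was 3.73, 8.88, 7.95 and 3.70 in control dogs 1, 3, 4 and 9. It was 3.62 to 3.73 in the ad libitum arrays except that of dog 7, at 4.56, where 16 of 32 markers reached the floor. Ciliated-cell markers averaged 6.12 in control dog 4 and 2.99 to 3.17 in the other 8 arrays, and 15 of 20 reached the floor in dog 4. That array also carried the oviduct secretory markers at 8.08 (2.96 to 3.28 elsewhere) and the mesothelial markers at 5.85 (at most 3.91 elsewhere), while the ciliated-cell regulator FOXJ1 stayed below the floor in all 9 arrays. PI3 stood at 13.79 in that array, within the subcutaneous range. Muscle and oviduct transcripts thus lay on the control side of the comparison, so the leading genes are also given without the arrays of dogs 3 and 4, and the rest are covered by a summary over all genes that passed.

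**Figure D1:**
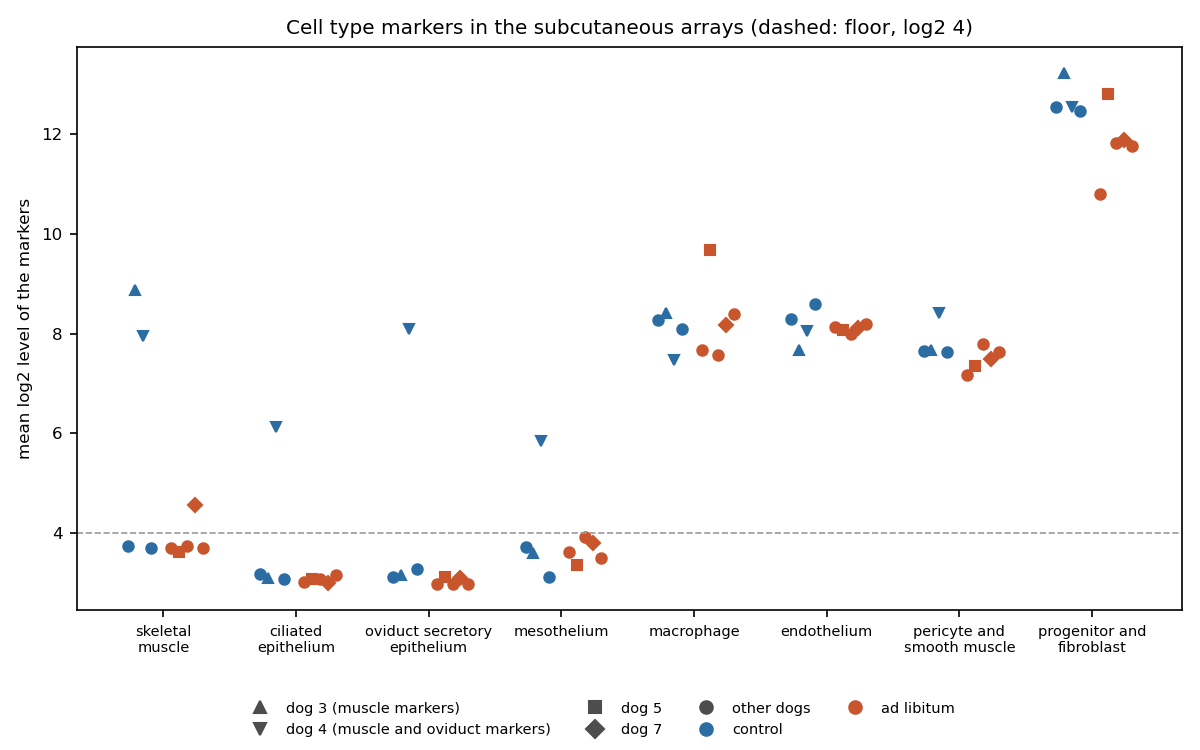
Mean log2 level of the marker genes of 8 cell types in each subcutaneous array, control in blue and ad libitum in orange, 1 point per dog. The arrays of dogs 3 and 4 carry muscle markers at 8.88 and 7.95, that of dog 4 also ciliated-cell and oviduct markers, and ad libitum dog 5 has the highest macrophage level, 9.67.

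Other cell type markers moved with the dogs as well. The 12 markers of adipose progenitors and fibroblasts, among them CD34, DCN and COL1A1, averaged 12.48 to 13.24 in the control arrays. They averaged 10.81 in ad libitum dog 2, 11.76 to 11.88 in dogs 6, 7 and 8, and 12.81 in dog 5, and 12 of the 12 tested were negative with a median difference of -0.79, none past the threshold. Macrophage markers averaged 7.46 to 8.42 in the control arrays and 7.57 to 8.39 in ad libitum dogs 2, 6, 7 and 8, against 9.67 in dog 5. The 14 endothelial markers averaged 7.67 to 8.60 in all 9 arrays. In whole tissue, fewer cells of a type and less RNA per cell cannot be told apart. RNA integrity was read from the actin and GAPDH control probe sets, whose signal at the 3' end exceeds that at the 5' end by more the shorter the RNA. The actin excess averaged 4.75 ± 1.02 (SD, n = 4) in control arrays and 3.49 ± 0.77 (SD, n = 5) in ad libitum arrays. The difference of -1.27 gave p = 0.0873 in a two-sided exact permutation test over 126 regroupings, whose smallest possible p is 0.00794. The GAPDH excess was 2.52 ± 0.28 (SD, n = 4) and 2.51 ± 0.16 (SD, n = 5), a difference of -0.01 (exact permutation p = 0.913). The part of these markers and of this signal in the results was not tested beyond the values given here and among the alternatives.

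Among the genes that passed the test, more were higher than lower in the ad libitum dogs, while over all genes the signs were even. In limma's moderated test with Benjamini-Hochberg adjustment, 506 of 21484 probe sets passed an adjusted p of 0.05 (2.36%), 409 higher (1.9%) and 97 lower (0.451%). With 1 probe set per gene, 200 of 8656 genes passed (2.31%), 170 higher (1.96%) and 30 lower (0.347%). With the arrays centred on their medians 136 passed, 103 higher and 33 lower. With the actin excess as a covariate none of the 200 passed in limma (smallest adjusted p 0.0694). All kept their sign, and the median differences were 0.99 and -0.93. These genes were chosen by their difference in the same arrays, so the kept signs are partly set by that choice. With the subcutaneous arrays fitted alone 14 genes passed, 11 of them among the 200. Over all genes the median difference was near 0 (0.000474) and 4333 of 8656 were positive. No overlap between the groups was seen in 2180 probe sets (10.1%) and in 905 genes (10.5%), 530 of them higher (6.12%) and 375 lower (4.33%). That was so in 137 of the 170 higher and 25 of the 30 lower genes that passed. The median difference was 1.20 among the higher genes and -0.97 among the lower genes.

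The 5 ad libitum arrays differed among themselves. Each dog gave 1 subcutaneous array and none from before the feeding, so a difference in response between dogs was not tested. Averaged over the 170 higher genes, the control arrays lay between 7.16 and 7.47, dog 5 at 7.98, dogs 6, 7 and 8 between 8.70 and 8.77, and dog 2 at 9.18. Dog 5 had the lowest ad libitum value in 145 of the 170 higher genes and the highest in 20 of the 30 lower genes. Dog 2 had the highest value in 117 of the 170 and the lowest in 21 of the 30. These are descriptions of genes chosen by the same arrays. Without dog 5, 1199 genes passed, all 200 among them. Without any 1 of the other 8 arrays the number fell, to 12 without dog 1 or dog 2, 19 without dog 3, 15 without dog 4 or dog 7, 17 without dog 8, 32 without dog 6 and 100 without dog 9. Without both dogs 3 and 4, in a comparison of 5 arrays with 2, none of the 200 passed in limma (smallest adjusted p 0.0809) and 1 other gene did, RHOH, while all 200 kept their sign and the median differences were 1.12 and -1.06. Gene by gene, the difference without these arrays was 0.659 to 1.37 times that with all arrays (median 0.948). Most of the 200 genes thus passed in few of the fits that leave out 1 array, though all 200 kept their sign in each. The 200 were chosen by their difference in these same arrays. Kept signs and similar sizes are partly set by that choice and test nothing. The weight of a single array and the smaller number of arrays in a fit were not told apart. KIAA0930, ECI2, LOC491883, MARK1 and C8G passed in all 9 fits that leave out 1 array. ADGRG4, NCEH1 and PLGRKT passed in 8, CDO1 and IMPA1 in 7, and BMP6, CDADC1, MMD and SDHAF2 in 6. The low values of C8G and ADGRG4, which limit what these numbers show, are described below. By contrast 104 of the 200 passed in 1 of these fits, that without dog 5. For the leading genes the number of these 9 fits in which they passed is given. Of the genes named below as rising or falling with no such number, NDUFAF1 passed in 4, HIGD1A, SIRT5, UBE2L3 and ANAPC13 in 3, and the others in 1 or 2.

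**Figure D2:**
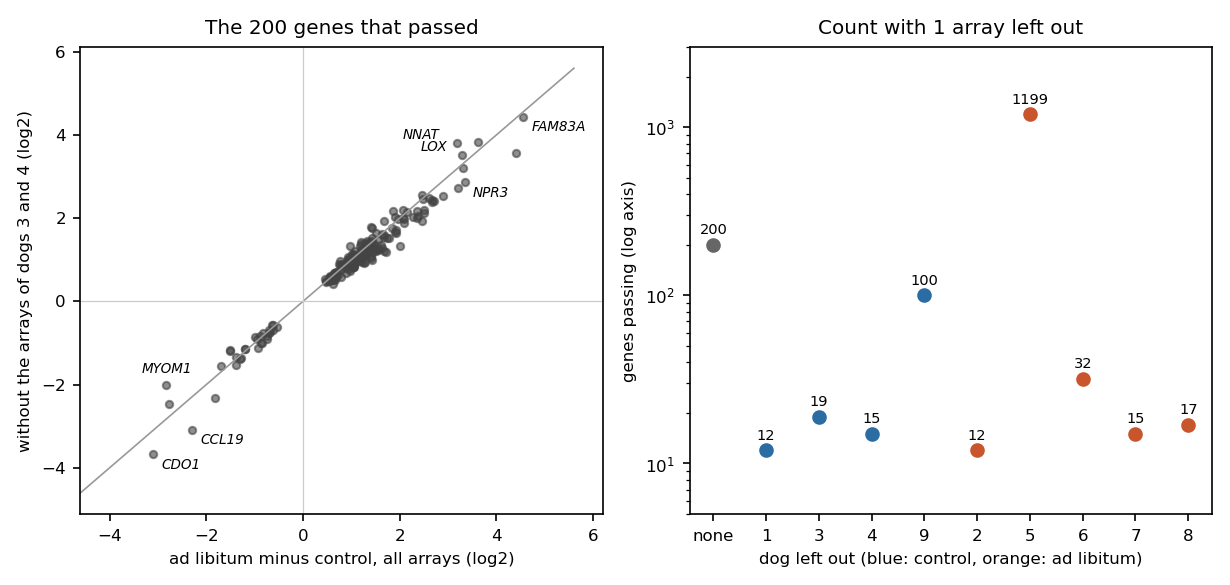
Left, the difference of each of the 200 genes that passed (ad libitum minus control, log2) against its difference without the arrays of dogs 3 and 4, with the line of equality. Right, the number of genes passing on a log axis when the array of 1 dog is left out, with 1199 genes without ad libitum dog 5 and 12 to 100 without any 1 of the others.

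Receptor and signalling genes that rose included those of a clearance receptor, a stress sensor, an imprinted proteolipid, a secreted ligand and an adhesion receptor. NPR3, which removes natriuretic peptides from the tissue and so lowers their signal, stood at 7.02, 5.42, 5.66 and 5.99 in control dogs 1, 3, 4 and 9 and at 10.68, 7.75, 8.89, 9.26 and 10.24 in ad libitum dogs 2, 5, 6, 7 and 8, the order of dogs used throughout. Every ad libitum array lay above every control array, with dog 5 the lowest of them. NPR3 rose by 3.34 ± 0.69 (adjusted p = 0.0251; 2.86 without dogs 3 and 4; 2 of 9 fits). All 4 of its probe sets passed. The guanylyl cyclase receptors that transmit the signal did not pass by their brightest probe set. NPR2 differed by -0.56 ± 0.20 (limma adjusted p = 0.117) and its groups did not overlap. Its other probe sets were at -0.79 ± 0.15, which passed, and -0.68 ± 0.17, which did not (limma adjusted p = 0.0236 and 0.0509). NPR1 differed by -0.22 ± 0.30 (limma adjusted p = 0.681) with overlapping groups. Of the 12 tested genes of natriuretic and cyclic nucleotide signalling NPR3 alone passed, and the median difference was 0.25.

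GADD45G, a growth arrest gene induced by cellular stress, was at 6.55, 5.91, 5.04 and 5.84 in the control arrays and 10.30, 7.92, 8.19, 8.80 and 8.38 in the ad libitum arrays. All ad libitum arrays were above all controls, and dog 2 stood above the rest. It rose by 2.88 ± 0.58 (limma adjusted p = 0.0245; 2.53 without dogs 3 and 4; 2 of 9 fits), whereas its relative GADD45B differed by -0.13 ± 0.45 (limma adjusted p = 0.891) and GADD45GIP1, a partner protein that sits in the mitochondrial ribosome, by 0.27 ± 0.19 (limma adjusted p = 0.408). NNAT, which encodes neuronatin, an imprinted membrane proteolipid of the endoplasmic reticulum, was at 9.35, 10.20, 11.02 and 9.36 in the control arrays and 14.01, 11.44, 13.13, 13.69 and 13.55 in the ad libitum arrays. Dogs 2, 6, 7 and 8 were far above all controls, and dog 5 was just above control dog 4. NNAT rose by 3.18 ± 0.56 (limma adjusted p = 0.0181; 3.81 without dogs 3 and 4; 5 of 9 fits), and all 3 of its probe sets passed. It was the only 1 of 8 tested imprinted growth genes that passed, in a list with a median of -0.20.

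BMP6, a secreted ligand of the bone morphogenetic protein family, was at 7.38, 5.58, 6.97 and 6.09 in the control arrays and 8.88, 7.88, 9.71, 8.44 and 8.94 in the ad libitum arrays, and the groups did not overlap. The increase was 2.27 ± 0.42 (limma adjusted p = 0.0210; 2.04 without dogs 3 and 4; 6 of 9 fits). ADGRG4, an adhesion receptor without a settled ligand, was at 3.03, 2.32, 3.65 and 4.89 in the control arrays and 8.13, 6.38, 7.91, 5.62 and 5.32 in the ad libitum arrays. It lay below the floor of log2 4 in 3 of 4 controls and above it in all 5 ad libitum dogs. Where a group mean lies below that floor the size is given as a bound, each array of the dim group being raised to the floor. On that basis ADGRG4 was at least 5.46-fold higher (limma adjusted p = 0.0163; 8 of 9 fits). FAM83A, which binds casein kinase 1, gave the largest bound of the genes named here, at least 12.8-fold (limma adjusted p = 0.0236; 2 of 9 fits), with 3.65, 2.95, 3.06 and 2.84 in the control arrays and 9.06, 5.08, 8.42, 7.46 and 8.36 in the ad libitum arrays. All 4 controls were below the floor and all 5 ad libitum dogs above it. C8G, a lipocalin of the terminal complement complex, was below the floor in every control and also in dog 5 (3.21, 3.09, 3.15 and 3.24 against 6.19, 3.89, 5.74, 4.93 and 5.43). It was at least 2.35-fold higher (limma adjusted p = 0.0105). C8G was below the floor in all 9 gonadal arrays too, so it met the filter on low values only through the ad libitum arrays in which it is high, and its passing in all 9 fits is no sign of stability. The same filter was met only with the higher group by 6 of the 170 higher genes, among them ADGRG4, ANAPC10 and DNER, and by CCL19 of the 30 lower genes. For ADGRG4 too, the number of fits passed is therefore no sign of stability.

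**Figure D3:**
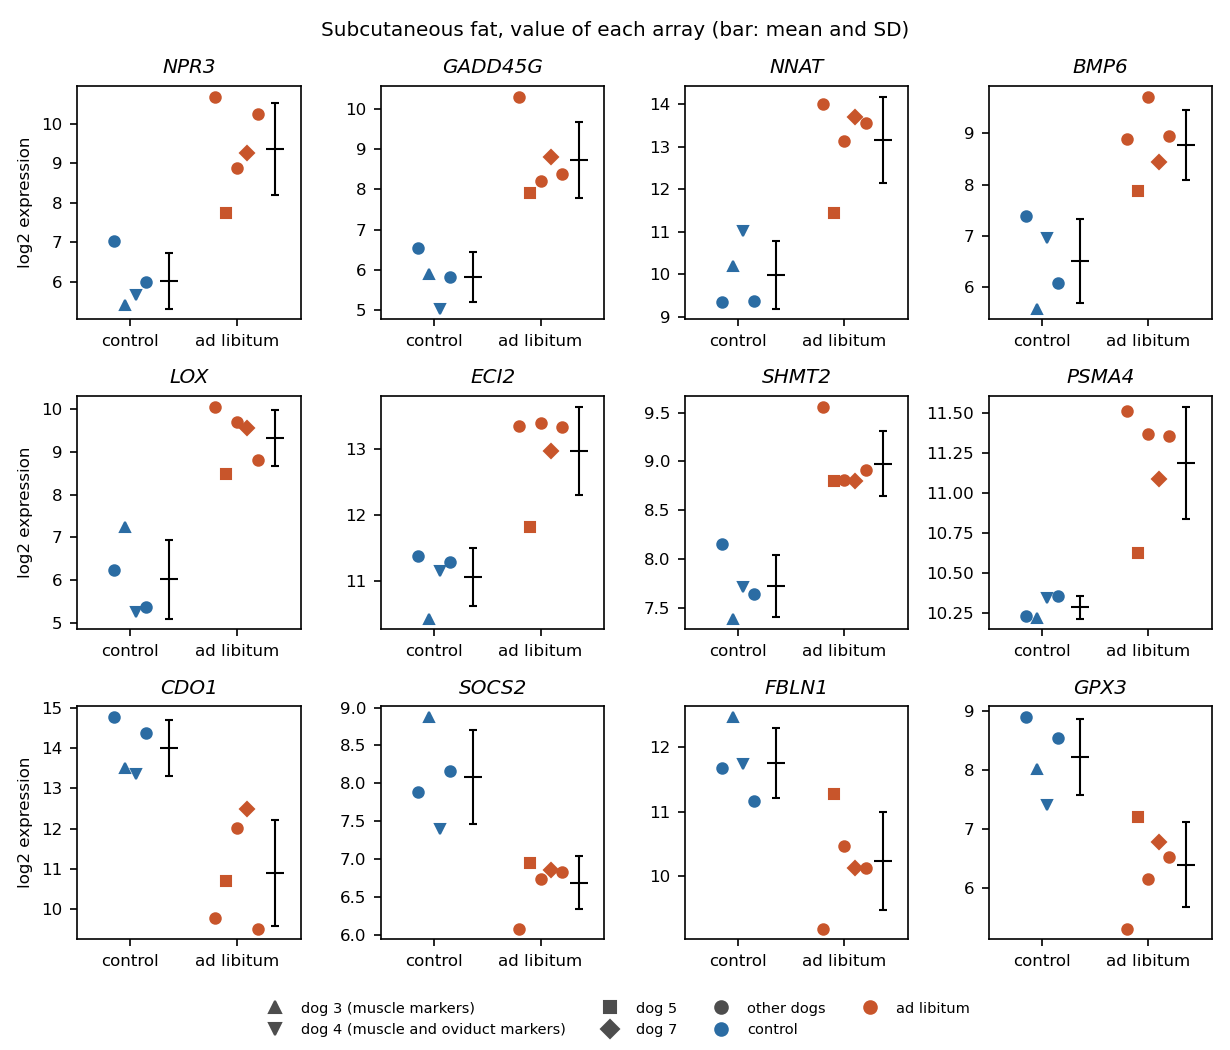
Log2 value of 12 genes in each subcutaneous array, control in blue and ad libitum in orange, with the group mean and SD beside the points and separate axes per gene. Dog 5 (square) is the ad libitum array nearest the controls for NPR3, NNAT, LOX, ECI2, PSMA4 and FBLN1, and dog 7 (diamond) for CDO1.

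Genes that passed in most of the 9 fits included a kinase, an enzyme of cholesterol ester breakdown and genes of little known function. MARK1, a kinase acting on microtubule-associated proteins, was at 8.79, 8.22, 8.66 and 9.09 in the control arrays and 10.72, 9.49, 10.72, 10.65 and 10.73 in the ad libitum arrays. Those of dogs 2, 6, 7 and 8 lay close together and dog 5 stood below them, still above every control. MARK1 rose by 1.77 ± 0.29 (limma adjusted p = 0.0160; leave-one-out range 1.62 to 2.02). KIAA0930 rose by 1.64 ± 0.24 (limma adjusted p = 0.0105), from 4.32, 4.35, 4.36 and 4.48 in the control arrays to 6.29, 5.95, 6.69, 5.84 and 5.32 in the ad libitum arrays. LOC491883, named only by its identifier, rose by 1.20 ± 0.16 and had the smallest adjusted p of any gene, 0.00837 in limma. PLGRKT, a plasminogen receptor of the cell surface, rose by 1.85 ± 0.31 (limma adjusted p = 0.0163), and NCEH1, which hydrolyses cholesterol esters, by 1.48 ± 0.25 (limma adjusted p = 0.0167). MMD, a membrane protein of the progestin and adipoQ receptor family, rose by 2.37 ± 0.41 (limma adjusted p = 0.0179; 6 of 9 fits).

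Other large increases were spread over unrelated functions. ARNTL2, a partner of the CLOCK protein, rose by 2.61 ± 0.60 (limma adjusted p = 0.0369), CA13, a cytosolic carbonic anhydrase, by 2.67 ± 0.68 (limma adjusted p = 0.0491) and FUOM, fucose mutarotase, by 2.66 ± 0.61 (limma adjusted p = 0.0375). WDFY4, known from antigen cross-presentation, rose by 2.50 ± 0.59, and PCSK1, a convertase that cuts prohormones, by 1.74 ± 0.33 (limma adjusted p = 0.0410 and 0.0210). SLC12A8, of the cation-chloride cotransporter family, rose by 2.45 ± 0.56, TPRG1 by 2.45 ± 0.61, APEX2, an endonuclease of DNA repair, by 2.15 ± 0.48 and CCDC62 by 1.68 ± 0.31. The Notch ligand gene DNER was at least 2.41-fold higher, the desmosome gene PKP2 at least 1.92-fold and SGPP1, which dephosphorylates sphingosine 1-phosphate, at least 3.78-fold. Dog 5 lay within the control range for DNER, PKP2 and APEX2. Of these 12 genes PCSK1 passed in 4 and CCDC62 in 3 of the 9 fits, and the others in 1 or 2. In the lipid storage list LEP, PNPLA3, DGAT2, ACSL1 and FITM2 also passed, 5 of 21 tested (23.8%, against 1.96% of all genes).

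Subunits of the mitochondrial respiratory chain were all positive, and none passed alone. All 34 tested subunits of oxidative phosphorylation had a positive difference, 0.10 to 0.87 with a median of 0.48, against a median of 0.000474 over all genes. None passed, 23 had an unadjusted p under 0.05 (67.6% of the list and 14.9% of all genes were higher at that level, and 8.84% of all genes lower) and 8 had no overlap between the groups (23.5% of the list, and 6.12% of all genes were higher without overlap). Without dogs 3 and 4 the median was 0.47 and all 34 were positive (muscle, which those 2 arrays carry, is rich in mitochondria). The median in gonadal fat of the same dogs was 0.00, with 17 of 34 positive. In subcutaneous fat the mean over the 34 was 11.23 to 11.37 in the control arrays and 11.26 in dog 5, within that range. It was 11.64 to 11.79 in dogs 6, 7 and 8 and 12.37 in dog 2. NDUFV2, NDUFB3 and NDUFA4, the members with the smallest p, differed by 0.74 ± 0.20, 0.57 ± 0.15 and 0.75 ± 0.21 (limma adjusted p = 0.0591, 0.0601 and 0.0708). The NDUFA4 values were 12.01, 12.00, 11.93 and 11.91 in the control arrays and 13.20, 12.10, 12.72, 12.73 and 12.79 in the ad libitum arrays, with dog 2 highest and dog 5 barely above the controls.

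Some genes that passed act in the assembly of these complexes or in the supply of fuel. Of 38 assembly factors of the respiratory complexes, a list drawn up after the values were seen, 6 passed, all upward (15.8%, against 1.96% of all genes), and 35 were positive. Choosing the list with the values known shaped this share, so it tests nothing. The list mean of dog 5, 7.89, lay within the control range of 7.68 to 7.90. SDHAF2, which attaches the flavin to complex II, was at 8.90, 8.92, 9.12 and 9.35 in the control arrays and 10.60, 9.54, 10.27, 10.31 and 10.53 in the ad libitum arrays. The groups did not overlap and the increase was 1.17 ± 0.20 (limma adjusted p = 0.0167; 1.12 without dogs 3 and 4; 6 of 9 fits). NDUFAF1, for complex I, rose by 0.56 ± 0.11, ATPAF2, for ATP synthase, by 1.41 ± 0.34, and HIGD1A, CMC4 and SMIM20, linked to complex IV, by 1.18 ± 0.23, 0.98 ± 0.25 and 0.66 ± 0.17 (limma adjusted p from 0.0236 to 0.0491). Of the 28 tested genes of pyruvate entry and the tricarboxylic acid cycle, 27 were positive with a median of 0.61 and 2 passed. Here too the list mean of dog 5, 9.87, lay within the control range, 9.65 to 10.06. DLAT, a subunit of the pyruvate dehydrogenase complex, rose by 1.43 ± 0.34 (limma adjusted p = 0.0428; 1 of 9 fits). Its second probe set differed by 0.61 (limma adjusted p = 0.287). PCK1, which adipocytes use to make glycerol phosphate from pyruvate, rose by 2.36 ± 0.52 (limma adjusted p = 0.0323; 2 of 9 fits), and all 3 of its probe sets passed. The pyruvate carrier subunit MPC2 differed by 1.12 ± 0.31 and PDHB, another subunit of the dehydrogenase, by 1.26 ± 0.35 (limma adjusted p = 0.0636 and 0.0657).

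Of 13 genes of unsaturated fatty acid oxidation, carnitine and related steps, a list drawn up after the values were seen, 5 rose (38.5%, against 1.96% of all genes). They were ECI2, ECI1, ECHDC1, TMLHE and SIRT5. Because the list was chosen with these values known, its share was shaped by that choice and tests nothing. The list mean of dog 5, 8.35, lay within the control range of 8.07 to 8.49. ECI2 and ECI1 are isomerases that move the double bond of an unsaturated fatty acid so that beta-oxidation can go on. ECI2 was at 11.38, 10.42, 11.14 and 11.28 in the control arrays and 13.35, 11.81, 13.39, 12.97 and 13.33 in the ad libitum arrays. Dog 5 was far below the other ad libitum dogs and still above every control. ECI2 rose by 1.92 ± 0.32 (limma adjusted p = 0.0163; 1.64 without dogs 3 and 4) and passed in all 9 fits. ECI1 rose by 2.51 ± 0.64 (limma adjusted p = 0.0491; 1 of 9 fits), from 8.81, 7.75, 7.61 and 8.06 to 11.89, 8.61, 10.88, 10.57 and 10.88, and here dog 5 lay below control dog 1. ECHDC1, which clears a side product of fatty acid synthesis, rose by 1.91 ± 0.43, TMLHE, the first enzyme of carnitine synthesis, by 1.45 ± 0.36, SIRT5, a desuccinylase of mitochondrial proteins, by 0.97 ± 0.18 and CPT2, which hands fatty acids from carnitine to coenzyme A, by 0.73 ± 0.18 (limma adjusted p = 0.0331, 0.0468, 0.0206 and 0.0470). The second probe set of TMLHE differed by 0.25 (limma adjusted p = 0.436). In the wider list of fatty acid oxidation 2 of 21 genes passed, CPT2 and ECI1. The list median was 0.57, and 0.27 without dogs 3 and 4. Among peroxisome biogenesis genes PEX3 rose by 1.29 ± 0.33 and PXMP4 by 1.47 ± 0.33 (limma adjusted p = 0.0492 and 0.0336), 2 of 14 tested in a list that was also drawn up after the values were seen.

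**Figure D4:**
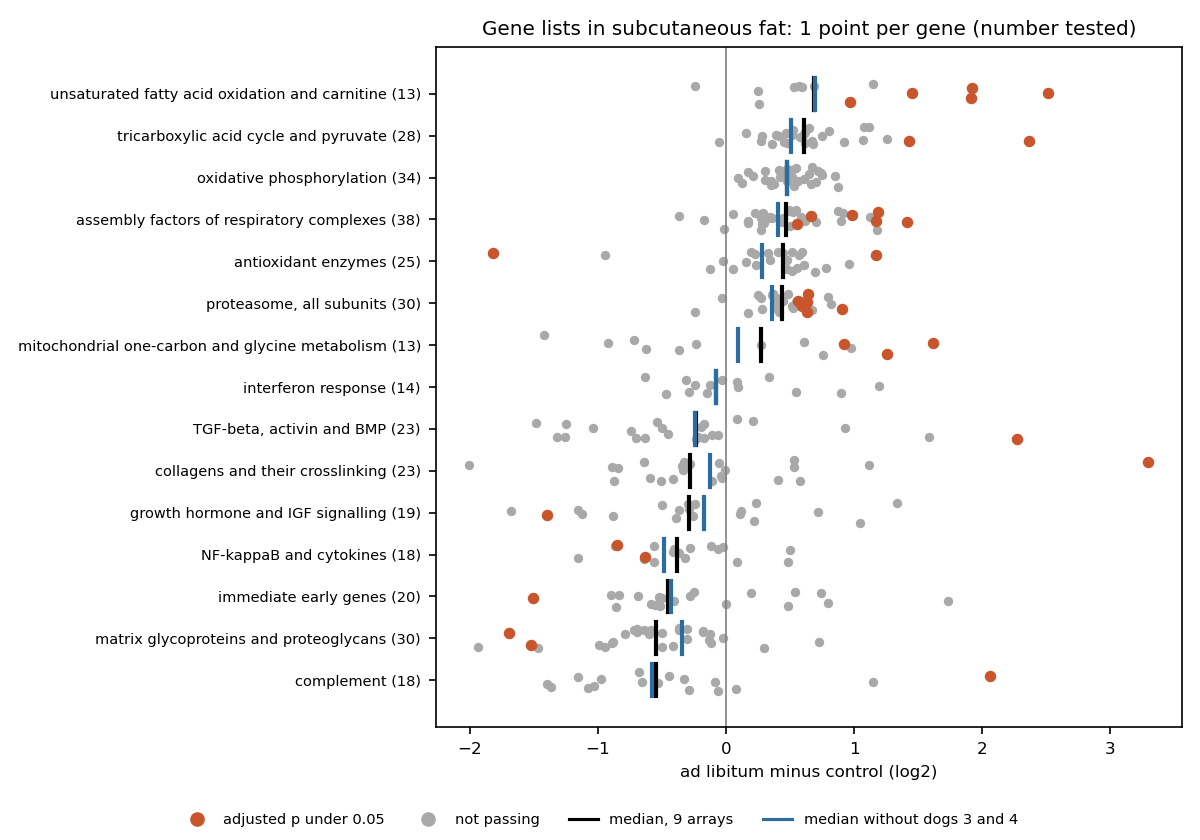
Difference between ad libitum and control arrays (log2) of each tested gene of 15 lists, orange where the adjusted p was under 0.05, with the list median over 9 arrays in black and without dogs 3 and 4 in blue. All 34 oxidative phosphorylation genes lie to the right of 0, and 28 of 30 matrix glycoproteins and proteoglycans to the left.

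Of 7 listed genes of the pentose phosphate pathway, which makes NADPH, 4 were tested and 2 rose, where 1.96% of all genes did. So few members allow no statement on the pathway. TKT, transketolase, rose by 1.28 ± 0.30 and RPE, ribulose phosphate epimerase, by 0.89 ± 0.23 (limma adjusted p = 0.0383 and 0.0488). Of 14 glycolytic genes 0 passed (1 higher and 1 lower at an unadjusted p under 0.05 in limma). At that level 14.9% of all genes were higher and 8.84% lower. In sterol synthesis CYP51A1, which demethylates lanosterol, rose by 1.45 ± 0.35 (limma adjusted p = 0.0423), 1 of 18 genes with a list median of 0.48. RDH11, a retinol dehydrogenase, rose by 1.51 ± 0.35 (limma adjusted p = 0.0383), 1 of 13 genes of retinoid handling, whose median was -0.25.

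Amino acid metabolism moved in both directions, and the largest decrease among genes that passed lay here. CDO1, cysteine dioxygenase, opens the path from cysteine to taurine. It was at 14.78, 13.49, 13.35 and 14.38 in the control arrays and at 9.78, 10.71, 12.01, 12.49 and 9.51 in the ad libitum arrays. The controls were high, and the ad libitum arrays ranged widely below them, with dogs 2 and 8 lowest. CDO1 fell by 3.10 ± 0.55 (limma adjusted p = 0.0183; -3.68 without dogs 3 and 4; 7 of 9 fits), and all 4 of its probe sets passed. AASS and AADAT, of lysine breakdown, differed without passing, AADAT by -0.92 ± 0.26 (limma adjusted p = 0.0696), and every ad libitum array of AASS was below the floor (5.50, 3.54, 4.25 and 4.93 in the control arrays). All 15 tested enzymes of branched-chain amino acid breakdown were positive and none passed. Their median was 0.61, and 0.25 without dogs 3 and 4. Averaged over these 15, dog 5 was at 8.45, within the control range of 8.27 to 8.98.

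In serine and glycine metabolism 3 mitochondrial enzymes rose. SHMT2, which splits serine into glycine and a folate-bound carbon, was at 8.15, 7.39, 7.71 and 7.64 in the control arrays and 9.56, 8.80, 8.81, 8.80 and 8.91 in the ad libitum arrays. No overlap was seen, and dog 2 stood above the others. SHMT2 rose by 1.26 ± 0.28 (limma adjusted p = 0.0331; 1.08 without dogs 3 and 4; 1 of 9 fits). ALDH1L2, which oxidises the folate-bound carbon and yields NADPH, rose by 1.61 ± 0.36, and GCSH, a carrier protein of the glycine cleavage system, by 0.92 ± 0.24 (limma adjusted p = 0.0347 and 0.0491). The second probe set of GCSH differed by -0.13 ± 0.41. AMT, another part of that system, differed by -0.71 ± 0.19, and ALDH1L1, the cytosolic relative of ALDH1L2, by -1.42 ± 0.40 (limma adjusted p = 0.0534 and 0.0661), and neither passed. The list had 3 of 13 members higher (23.1%, against 1.96% of all genes) and a median of 0.27. It was drawn up after the values were seen, so its share tests nothing. ASNS, asparagine synthetase, a target of the amino acid stress factor ATF4, rose by 1.63 ± 0.40 (limma adjusted p = 0.0447; 1 of 9 fits), with all 3 probe sets passing. No other ATF4 target of 8 passed, and of 14 endoplasmic reticulum chaperones and degradation genes 3 were positive.

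The proteasome, the protease that degrades ubiquitin-tagged proteins, had 6 subunits that rose and none that fell. Averaged over its 30 tested subunits, the control arrays lay between 10.45 and 10.62 and the ad libitum arrays between 10.75 and 11.15. Each ad libitum mean was above each control mean. In all, 6 subunits passed, 20% of the list against 1.96% of all genes. They were PSMA1, PSMA2, PSMA3 and PSMA4 of the outer ring, PSMB5, a catalytic subunit, and PSMD14, the deubiquitinase of the lid. PSMA4 was at 10.23, 10.22, 10.34 and 10.35 in the control arrays and 11.51, 10.63, 11.37, 11.08 and 11.35 in the ad libitum arrays. The controls were within a narrow band and dog 5 was the lowest ad libitum array, above that band. PSMA4 rose by 0.90 ± 0.17 (limma adjusted p = 0.0210; 0.90 without dogs 3 and 4; 2 of 9 fits). PSMA3 rose by 0.56 ± 0.11, PSMD14 by 0.63 ± 0.13, PSMA1 by 0.63 ± 0.15, PSMA2 by 0.59 ± 0.14 and PSMB5 by 0.64 ± 0.16 (limma adjusted p from 0.0236 to 0.0456). Of all 30, 28 were positive with a median of 0.43, and 24 had an unadjusted p under 0.05 (14.9% of all genes were higher at that level). The 3 subunits of the interferon-induced immunoproteasome, PSMB8, PSMB9 and PSMB10, did not pass and had a median of -0.03. The full subunit list was completed after 16 of these genes had been seen to be positive, so its share is no separate test.

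Other genes of ubiquitin handling passed too. UBE2L3, a ubiquitin-conjugating enzyme, rose by 0.63 ± 0.11 and UCHL3, a ubiquitin hydrolase, by 1.02 ± 0.25 (limma adjusted p = 0.0181 and 0.0447). The second probe set of UBE2L3 differed by 0.10 (limma adjusted p = 0.681). Of 14 subunits of the anaphase-promoting complex, a ubiquitin ligase, ANAPC4 rose by 0.54 ± 0.12 and ANAPC13 by 0.63 ± 0.13 (limma adjusted p = 0.0347 and 0.0249), and ANAPC10 was at least 1.66-fold higher (limma adjusted p = 0.0488). Other probe sets of ANAPC13 differed by 0.02 and 0.12 and did not pass. ANAPC10 met the filter on low values only with the ad libitum arrays. The list was drawn up after the values were seen, and 1.96% of all genes passed upward. None of 8 cell division genes passed. Cytosolic ribosomal proteins went the other way without passing, 11 of 12 negative with a median of -0.14, and EIF4A2, an RNA helicase of translation initiation, fell by 0.61 ± 0.13 (limma adjusted p = 0.0288).

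Among antioxidant enzymes 1 rose and 1 fell. PRDX3, the peroxiredoxin of mitochondria, was at 11.29, 10.86, 10.97 and 11.30 in the control arrays and 13.10, 11.50, 12.18, 12.25 and 12.36 in the ad libitum arrays and rose by 1.17 ± 0.27 (limma adjusted p = 0.0366; 1 of 9 fits). GPX3, the glutathione peroxidase secreted into plasma, was at 8.90, 8.02, 7.41 and 8.53 in the control arrays and 5.32, 7.21, 6.17, 6.78 and 6.53 in the ad libitum arrays. Both pairs of groups were apart, with dog 2 at the far end of each. GPX3 fell by 1.82 ± 0.46 (limma adjusted p = 0.0491; -2.31 without dogs 3 and 4; 1 of 9 fits). Its second probe set differed by -1.26 (limma adjusted p = 0.159). Of the 25 tested antioxidant genes 21 were positive, with a median of 0.45.

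Among matrix genes LOX and NID2 rose, and FBLN1 and ISLR fell. LOX, which crosslinks collagen and elastin, was at 6.23, 7.25, 5.25 and 5.37 in the control arrays and 10.05, 8.47, 9.69, 9.56 and 8.80 in the ad libitum arrays. All 5 ad libitum arrays were higher, and the highest control, dog 3, lay more than 1 log2 unit below dog 5. LOX rose by 3.29 ± 0.66 (limma adjusted p = 0.0245; 3.52 without dogs 3 and 4; 2 of 9 fits). The related enzymes LOXL2 and LOXL3 differed by -0.34 ± 0.43 and -0.41 ± 0.31 (limma adjusted p = 0.650 and 0.436). NID2, which joins the networks of basement membrane, rose by 1.52 ± 0.36 (limma adjusted p = 0.0412). Of 30 matrix glycoproteins and proteoglycans 28 were negative, with a median of -0.54 that was -0.34 without dogs 3 and 4.

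FBLN1, fibulin 1 of elastic fibres, fell by 1.52 ± 0.39 (limma adjusted p = 0.0496; 1 of 9 fits), from 11.66, 12.46, 11.73 and 11.16 in the control arrays to 9.19, 11.27, 10.46, 10.13 and 10.13 in the ad libitum arrays. Dog 5 lay above control dog 9, so the groups overlapped. ISLR, a marker of mesenchymal stromal cells, fell by 1.70 ± 0.43 (limma adjusted p = 0.0498; 1 of 9 fits), from 5.88, 6.81, 5.71 and 6.04 to 3.47, 4.73, 4.65, 4.58 and 4.64. The 12 collagen genes had a median of -0.46 and none passed. COL14A1 ranged from -2.00 over all arrays to -1.38 without dogs 3 and 4, and COL1A1 stood at 14.97, 15.28, 15.13 and 14.46 in the control arrays and 13.48, 15.34, 13.81, 14.02 and 13.93 in the ad libitum arrays. For both genes dog 5 lay with the controls. The progenitor and fibroblast markers moved the same way, as given above, and their part in the matrix values was not tested.

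Among growth factor genes BMP6 rose and EGFR fell. Of 23 tested genes of the TGF-beta family 18 were negative and BMP6 alone passed. BMP4 differed by -1.04 ± 0.29, the latent TGF-beta binding protein gene LTBP4 by -1.26 ± 0.37 and the coreceptor gene TGFBR3 by -1.32 ± 0.41 (limma adjusted p = 0.0656, 0.0732 and 0.0840). EGFR, the epidermal growth factor receptor, was at 11.54, 11.26, 11.23 and 11.51 in the control arrays and 9.76, 11.19, 10.50, 10.51 and 10.66 in the ad libitum arrays. Dog 5 lay just under the lowest control. EGFR fell by 0.86 ± 0.22 (limma adjusted p = 0.0470; leave-one-out range -1.03 to -0.67; 1 of 9 fits), as did OGA, which removes O-linked N-acetylglucosamine from proteins, by 1.19 ± 0.24 (limma adjusted p = 0.0245; 4 of 9 fits).

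In the growth hormone pathway 1 feedback inhibitor fell. SOCS2, induced by growth hormone and inhibiting its receptor, was at 7.89, 8.88, 7.40 and 8.16 in the control arrays and 6.08, 6.95, 6.74, 6.85 and 6.82 in the ad libitum arrays. The groups did not overlap. SOCS2 fell by 1.39 ± 0.28 (limma adjusted p = 0.0245; -1.34 without dogs 3 and 4; 3 of 9 fits). CISH, a second inhibitor of that loop, was at 5.39, 4.74, 4.25 and 6.15 in the control arrays and below the floor in all 5 ad libitum arrays, and did not pass (limma adjusted p = 0.103). SOCS5 and SOCS6 differed by -0.39 ± 0.41 and -0.29 ± 0.29 (limma adjusted p = 0.577 and 0.555). IGF1 differed by 1.05 ± 0.35 and its receptor gene IGF1R by -1.13 ± 0.44 (limma adjusted p = 0.107 and 0.145). Of the 19 tested genes of the pathway SOCS2 alone passed. Of 13 insulin signalling genes none did (1 higher and 2 lower at an unadjusted p under 0.05 in limma), with a median of 0.11. Over all genes 14.9% were higher and 8.84% lower at that level.

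Among immune genes a chemokine and a pair of NF-kappaB genes fell. CCL19, a chemokine that attracts lymphocytes and dendritic cells, was at 5.69, 5.66, 4.91 and 7.99 in the control arrays and 2.94, 5.75, 3.64, 3.15 and 3.31 in the ad libitum arrays. Dog 5 lay within the control range and the other 4 below the floor. CCL19 was at least 3.27-fold lower (limma adjusted p = 0.0428; 1 of 9 fits). NFKB1, a subunit of NF-kappaB, fell by 0.85 ± 0.21, and NFKBIB, 1 of its inhibitors, by 0.64 ± 0.15 (limma adjusted p = 0.0468 and 0.0440), 2 of 18 genes in a list with a median of -0.38. Over all genes 0.347% passed downward. The second probe set of NFKBIB lay on the other side of 0. IL10RB, a receptor subunit for interleukin 10, rose by 1.58 ± 0.36 (limma adjusted p = 0.0360). Apart from C8G the complement genes did not pass, 15 of 18 negative, C1R by -1.39 ± 0.39 and C3 by -1.37 ± 0.48 (limma adjusted p = 0.0642 and 0.114). Interferon targets had a median of -0.08 and none of 14 passed (2 higher and 1 lower at an unadjusted p under 0.05 in limma). Among all genes 14.9% were higher and 8.84% lower at that level. The macrophage scavenger receptor gene MSR1 differed by 1.99 ± 0.52 (limma adjusted p = 0.0534), with dogs 5 and 8 highest. LOC607467, a gene listed as a variable segment in the RefSeq gene table, fell by 2.76 ± 0.58 (limma adjusted p = 0.0268; 2 of 9 fits). It went from 11.71, 11.50, 13.72 and 12.32 to 10.86, 10.56, 10.04, 8.99 and 7.33. Its other probe sets differed by -2.58 to -3.17, which passed, and by -0.08 and -0.07, which did not.

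Single genes of stress and rapid-response lists were lower. IER5L, an immediate early response gene, fell by 1.50 ± 0.33 (limma adjusted p = 0.0323; 2 of 9 fits), and ANKRD37, a target of hypoxia-inducible factor, by 1.38 ± 0.34 (limma adjusted p = 0.0440; 1 of 9 fits). Each was the only gene of its list to pass, of 20 and 21 tested. The list medians were -0.45 and 0.06. No gene of the circadian clock list (11 tested), the Wnt list (18), the matrix protease list (17) or the steroid receptor list (11) passed in limma. ARNTL2, which rose, is not in that clock list. At an unadjusted p under 0.05 they had 1, 2, 0 and 2 genes higher and 2, 5, 1 and 0 lower. Of all genes 14.9% were higher and 8.84% lower at that level.

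Further decreases were in genes of unrelated function. ILDR2, an immunoglobulin-like membrane protein, fell by 1.30 ± 0.25, LOC479761, named only by its identifier, by 1.28 ± 0.23, and SLC22A17, a receptor for lipocalin 2, by 0.99 ± 0.17 (limma adjusted p = 0.0236, 0.0196 and 0.0181), and these passed in 4, 5 and 5 of the 9 fits. MTMR11 fell by 1.20 ± 0.30 and FUT10, a fucosyltransferase, by 0.95 ± 0.24. Regulators of transcription and RNA among the decreases were IKZF2 (-0.83), CDK12 (-0.75), SMARCC2 (-0.74), RALY (-0.71) and EXOSC7 (-0.92). The second probe set of CDK12 differed by -0.07 (limma adjusted p = 0.862). LRP10, a lipoprotein receptor relative, fell by 0.54 ± 0.12.

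Muscle markers were examined among the genes that passed. MYOM1, a protein of the sarcomere, was the only 1 of 18 tested muscle markers to pass, at 7.49, 9.67, 8.61 and 7.57 in the control arrays and 4.40, 6.21, 6.06, 5.10 and 5.79 in the ad libitum arrays. Dogs 3 and 4 were the highest controls, but dogs 1 and 9 also lay above every ad libitum array. MYOM1 fell by 2.82 ± 0.69 (limma adjusted p = 0.0447), with -2.02 without dogs 3 and 4 and 1 of 9 fits passing. Over the 18 tested markers the median difference was -2.79 with all arrays and 0.07 without dogs 3 and 4. Of 20 ciliated-cell and 8 oviduct markers on the array, 2 and 4 met the filter on low values. None of these passed. Their medians were -0.64 and -2.05, and -0.31 and -0.27 without dogs 3 and 4. A marker high in 1 array alone does not meet that filter, so the test could not show the signal of dog 4. TPPP3, a ciliated marker that was tested, stood at 9.69 to 12.21 in all 9 arrays and was not highest in dog 4. With the muscle and ciliated-cell levels as covariates 10 genes passed, 8 of them among the 200. All 200 kept their sign, which is partly set by how they were chosen.

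The same dogs' gonadal fat gave smaller differences for most of these genes, which were chosen for their difference in subcutaneous fat. In gonadal fat 0 of 21484 probe sets passed (limma, smallest adjusted p 0.99994, 531 at an unadjusted p under 0.05). The 170 genes higher in subcutaneous fat had a gonadal median of 0.23, and the 30 lower genes one of -0.18. NPR3 differed by 1.58 ± 0.69 in gonadal fat and by 3.34 ± 0.69 in subcutaneous fat, NNAT by 1.26 ± 0.56 and 3.18 ± 0.56, LOX by 1.07 ± 0.66 and 3.29 ± 0.66, and GADD45G by 0.36 ± 0.58 and 2.88 ± 0.58. CDO1 differed by -0.54 ± 0.55 and -3.10 ± 0.55, and ECI2 by 0.44 ± 0.32 and 1.92 ± 0.32. Tested directly, the difference between the depots in their response passed for 0 of 21484 probe sets (limma, smallest adjusted p 0.254, 1344 at an unadjusted p under 0.05). For MARK1, KIAA0930 and C8G, whose gonadal differences were -0.14 ± 0.29, -0.04 ± 0.24 and -0.02 ± 0.31, the adjusted p of that difference was 0.456, 0.456 and 0.456. A response particular to subcutaneous fat was therefore not established for any gene.

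**Figure D5:**
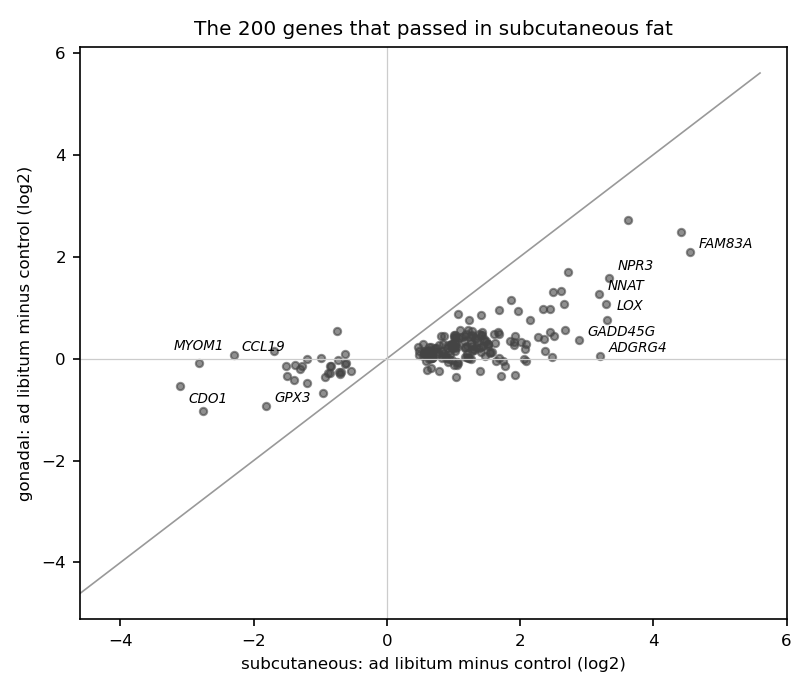
Difference between ad libitum and control dogs (log2) in gonadal fat against subcutaneous fat for the 200 genes that passed in subcutaneous fat, with the line of equality. The gonadal median is 0.23 for the 170 higher genes and -0.18 for the 30 lower genes, and no difference between the depots passed.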

How the data were processed

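Biotin-labelled RNA from 9 subcutaneous and 9 gonadal samples was hybridised to a canine array. The deposited values, made with GCRMA per the submitters' processing notes, are read here as log2. The sources used here do not give its version, its options, the base of the logarithm or scan dates. Of 43035 probe sets 111 are array controls, and the platform annotation gives 1 symbol to 29254 of the other 42924 and several to 439. The 21484 probe sets at log2 4 or more in at least 4 of 18 arrays were tested.

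A linear model in limma 3.58.1 (R 4.3.3, statmod 1.5.0) had a mean for each of 4 depot and feeding groups, used all 18 arrays and left 14 residual degrees of freedom. All p values are two-sided and were adjusted over the probe sets tested by the Benjamini-Hochberg method, with a threshold of 0.05. Feeding groups share no dog. Animal numbers in the labels pair the depots, so the dog as a random block was an alternative. Each dog gave 1 array per depot. For a gene with several probe sets, that of highest mean stands for it. Of 113 genes that passed with several probe sets tested, 110 had all of them on the same side of 0. Passing by 1 probe set did not mean that the others passed. Genes with values are the largest changes that passed, list members with the smallest p and a few related members. Gene lists and members were chosen with earlier results of these data known, and 7 lists were added after values were seen. Alternatives were other filters, scalings and moderation, subcutaneous arrays alone, covariates, and arrays left out.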

Additional observations from a re-analysis of the deposited data

Results flagged for a closer look

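Of 242 groups of 4 or 5 arrays examined, 19 held an array far from the others of its group, where chance alone gives about 1 in 20. Ad libitum dog 5 stood apart in ECI2 (11.8), MARK1 (9.49), MPC2 (12.0), RPE (8.75), GCSH (10.9), AMT (8.53), CCL19 (5.75) and LOXL2 (12.3), in each on the side of the control arrays. Ad libitum dog 2 stood apart on the far side in ISLR (3.47), SOCS2 (6.08) and SHMT2 (9.56). Control dog 9 stood apart in TMLHE (5.27), NDUFV2 (11.4) and PSMA3 (12.6), control dog 3 in CA13 (4.59), control dog 1 in GADD45GIP1 (6.11) and control dog 4 in EXOSC7 (8.45). The skeletal muscle marker level of ad libitum dog 7 (4.56) and the ciliated epithelium marker level of control dog 4 (6.12) also stood apart.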

How the results depend on the processing

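With no filter on low values each difference stays the same by construction, so no sign could change. The adjustment over 42924 probe sets left 173 probe sets and 79 genes passing. Repeated quantile normalization left 308 probe sets and 116 genes, and the subcutaneous arrays alone 60 and 14. Without dogs 3 and 4, 2 probe sets and 1 gene passed, none of the 200, and the same numbers without dogs 3, 4 and 7, an alternative chosen after seeing the data. With the muscle and ciliated-cell levels as covariates 31 and 10 passed, and with the actin 3' minus 5' signal 1 and 0 (2641 probe sets at an unadjusted p under 0.05 in limma). Leaving out 1 array in turn gave 34 to 2956 probe sets and 12 to 1199 genes passing, and 0 to 19 probe sets for the difference between depots. Probe sets whose groups do not overlap numbered 2180 with all arrays, 4267 without dogs 3 and 4, and 2361 to 6416 with 1 array left out. With the dog as a random block (replicate block, correlation 0.168) 472 probe sets and 194 genes passed, and no depot difference did. NPR1, SOCS5 and GADD45B, which did not pass, changed sign under some settings. With the actin signal as covariate NPR1 was at 0.16, SOCS5 at 0.060 and GADD45B at 0.22. GADD45B was at 0.028 without dogs 3 and 4, 0.21 without dogs 3, 4 and 7, and 0.10 with the marker covariates. With 1 array left out NPR1 ranged from -0.57 to 0.023 and GADD45B from -0.43 to 0.055. The cause of these changes was not tested beyond the smaller number of arrays or the larger number of probe sets in a fit. With 4 and 5 arrays, the smallest difference that passed was 0.47 log2 units, and 58 of the 170 higher and 16 of the 30 lower genes that passed differed by under 1.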
